A study of Mus musculus with 24 samples.

Results

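The response of blood transcripts to 7 Gy of x-rays was examined in wild-type mice by setting 5 arrays taken 24 h after 7 Gy against 5 arrays at 0 Gy, which are 10 of the 24 arrays in the series. Membership followed the sample titles alone. Per the labels, every array held total RNA from blood of male C57BL/6J mice of genotype Gadd45aWT, drawn by cardiac puncture at euthanasia into a PAXgene solution that preserves RNA; the age of the mice and any pooling are not given in the sources used here. The 0 Gy and 7 Gy groups differ, per the labels, in the dose alone. Independent experiments are named in the design text but not which mouse gave which array, and p-values therefore reflect only how these samples spread, which may be technical. The series concerns the effect of Gadd45a, a stress gene that restrains autoimmunity, on the estimation of radiation dose from blood; the arrays of Gadd45aKO mice enter here through the shared estimate of spread, the probes used for scaling, the filter on detection and the choice of 1 probe per gene.

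Ionising radiation breaks DNA and stabilises the transcription factor p53, which switches on genes that halt the cell cycle (Cdkn1a), feed back on p53 itself (Mdm2) or kill the cell (Bax, Bbc3). Blood is a mixture of cells that differ in how readily they die after irradiation: B cells are among the most sensitive, while mature neutrophils, platelets and red cells no longer divide. Young red cells (reticulocytes) still carry RNA and are replaced daily from dividing marrow precursors. In RNA from whole blood, fewer cells of a type and less RNA per cell cannot be told apart, and every level below is a share of what the array measured.

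Between 36.8% and 48.9% of probes stood well above background at 0 Gy, and between 39.2% and 45.9% at 7 Gy. Levels are log2 signals relative to the array's 75th percentile, so that a difference of 1 is a doubling. Replicates 2 and 3 at 0 Gy differed by no more than repeat spots of the same probe within an array (ratio 0.935), as did replicates 1 and 2 (ratio 0.94) and replicates 3 and 4 (ratio 0.98) at 7 Gy; each such pair was averaged and counted as 1 sample, leaving n = 4 at 0 Gy and n = 3 at 7 Gy. The 7 Gy arrays fell into 2 tight sets: replicates 1 and 2 differed from replicates 3, 4 and 5 by 3.94 to 4.53 times the repeat-spot spread, against 1.45 and 1.76 for replicate 5 against replicates 4 and 3. Replicate 1 at 0 Gy had noisy repeat spots (a coefficient of variation of 16.6%, against 5.73% to 8.15% on the other 9 arrays). Transcripts of hepatocyte genes were also present at 7 Gy: over 39 such genes, the summed linear level was 1.30 to 1.90 on the 0 Gy arrays, 15.0 and 15.3 on 7 Gy replicates 1 and 2, and 214.9, 224.2 and 235.1 on replicates 3, 4 and 5. Their part in the other results was not tested, and the level of the main gene groups on each 7 Gy array is given beside them. Fixed markers of blood cells were detected: all those tested for T cells (9), monocytes (7), platelets (10) and erythroid cells (9) were above background on every 0 Gy array.

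In blood 24 h after 7 Gy, many p53 targets, interferon-stimulated genes, complement C1q genes and genes of liver secretory proteins rose, and many genes of B cells, MHC class II, naive T cell homing, red cell membrane and dividing cells fell. Of 15779 genes tested, 891 (5.65%) rose and 1273 (8.07%) fell, together 13.7%, at a limma adjusted p under 0.05. The median change over all genes was −0.04. The genes that rose had a median change of 1.87 and 240 of them changed by over 8-fold; those that fell had a median of −1.43, with 140 over 8-fold. Without 7 Gy replicate 5 the counts were 493 and 742, and without replicates 1 and 2 they were 991 and 1486. Both runs had fewer samples at 7 Gy. Without replicates 3 to 5 only 1 sample was left at 7 Gy, so no counts are given. Replicates 1, 4 and 5 at 0 Gy and replicate 5 at 7 Gy each form a sample alone, so leaving 1 out lowers n. Without 0 Gy replicate 1, 4 or 5, 699, 623 and 648 genes rose, against 885 and 883 without the averaged replicates 2 or 3. In such counts a smaller n and the part of an array cannot be told apart. With near-identical arrays averaged in all 4 groups of the series, 2 samples were left at 7 Gy (1 for each tight set) and 2 at 0 Gy, and the counts were 100 and 354. Normexp background correction gave 116 and 149, and turned the sign of 17 named genes, among them Fanca, Apex1, Msh6, Fen1, Topbp1, Cd8a, Bach2, Il5ra, Mapk12 and Trim58. The replicate number marks the slide, so that each slide carried 1 array of either dose; with slide as a block in the wild-type arrays, every array counted, the counts were 2329 and 3136.

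**Figure D1:**
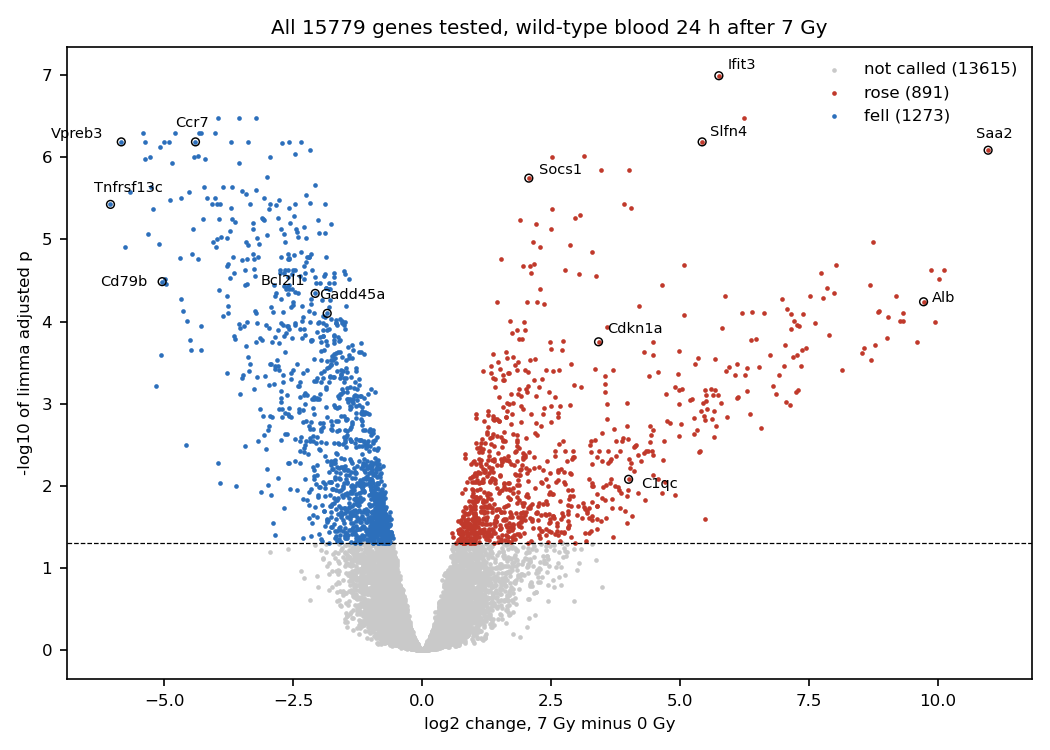
Each point is 1 of 15779 genes, placed by its log2 change (7 Gy minus 0 Gy, horizontal) and by −log10 of its limma adjusted p (vertical); red genes rose (891), blue genes fell (1273) and the dashed line marks an adjusted p of 0.05. Liver genes such as Alb and Saa2 lie far right, Ifit3 has the smallest adjusted p, and B cell genes such as Vpreb3 and Tnfrsf13c lie far left.

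The genes that rose lay above the mean of the 0 Gy samples by a median of 1.45, 1.47, 2.0, 2.0 and 2.02 on 7 Gy replicates 1 to 5. The genes that fell lay below it, with medians of −1.17, −1.08, −1.58, −1.59 and −1.52. Other probes for the same genes mostly moved alike: 90.7% of 194 further probes of genes that rose were also higher, and 90.8% of 360 further probes of genes that fell were also lower. Each gene is given by its probe of highest mean, and some of the probes that differed from it are given beside it, with a limma p adjusted over all 19646 probes kept.

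Many genes that p53 switches on rose. Among p53 targets for arrest and feedback, 13 of 23 tested rose and 0 fell, against 5.65% of all genes, with a median change of 1.41. Of the 23, 5 were lower but not called. In 2 of them every 7 Gy array lay below every 0 Gy array, as it did for 16.5% of all genes. Among p53 targets for apoptosis, 8 of 18 rose and 0 fell (median 1.01). Gadd45a, a DNA damage gene that fell, is on neither of these lists and is given below, so that the counts of 0 hold only for the lists as chosen. The lists were chosen with earlier results of these data known. The median of the arrest list was 1.21, 1.54, 1.39, 1.34 and 1.38 on 7 Gy replicates 1 to 5, and that of the apoptosis list 0.88, 1.25, 0.99, 0.93 and 1.05, above 0 on all 5 arrays. Taken within slides 1 to 5, the arrest list had medians of 1.34, 1.06, 1.41, 1.33 and 1.14.

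Cdkn1a encodes p21, the kinase inhibitor that holds cells before DNA replication. Its level was −5.03, −5.04, −5.45, −5.09 and −5.72 on 0 Gy replicates 1 to 5 and −1.62, −1.67, −1.76, −1.66 and −2.2 on 7 Gy replicates 1 to 5. The doses lay far apart, with no overlap and no split between the 7 Gy arrays. The means were −5.27 ± 0.31 (SD, n = 4) at 0 Gy and −1.85 ± 0.31 (SD, n = 3) at 7 Gy, a change of 3.42 ± 0.51 (SE; limma adjusted p = 0.000176), or 10.7-fold. Its probe lies at chr17:29237377-29237436 in mm9, the build of the array files. In RefSeq's GRCm38.p6 promoters, 1 of the 22 arrest genes with a promoter in the table, Cdkn1a, held a tandem of p53 core motifs (CATG, 6 further bases and CATG, both strands) in the 250 bases before to 50 after a start, and 0 of 16 apoptosis genes did; the share over all promoters was 0.833%. The 250 bases before that start (chr17:29090729-29090978, GRCm38.p6, plus strand) are shown because they hold the motif, in capitals, beginning 48 bases before the start.
Cdkn1a: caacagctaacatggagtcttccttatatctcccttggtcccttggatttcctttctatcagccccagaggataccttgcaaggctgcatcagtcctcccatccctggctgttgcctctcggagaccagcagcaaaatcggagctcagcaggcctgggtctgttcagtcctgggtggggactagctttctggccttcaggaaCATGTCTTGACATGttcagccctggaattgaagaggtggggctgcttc
A match of letters is a description and not a binding site.

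Other arrest and feedback genes moved with it. Phlda3, an inhibitor of the kinase Akt, was −2.11, −2.13, −2.27, −2.22 and −2.06 at 0 Gy and 0.29, 0.34, −0.12, −0.07 and −0.06 at 7 Gy. The doses did not overlap, and the change was 2.2 ± 0.23 (SE; adjusted p = 6.46e-06). Ccng1, cyclin G1, was −4.19, −4.38, −4.57, −4.31 and −4.42 at 0 Gy and −2.27, −1.86, −2.49, −2.28 and −2.11 at 7 Gy, a change of 2.16. Mdm2, the ligase that degrades p53, changed by 1.13 ± 0.25 (SE; adjusted p = 0.00524), from −2.03, −1.78, −1.87, −1.89 and −1.57 to −0.74, −0.72, −0.94, −0.89 and −0.45, again with no overlap. Gdf15, a secreted stress cytokine, was well above background on 0 of the 5 arrays at 0 Gy and on all 5 at 7 Gy (−4.0, −4.08, −3.78, −3.67 and −3.76), which is at least 7.74-fold higher. Plk2, a kinase, and Gtse1, a partner of p53, were likewise above background on 0 arrays at 0 Gy and on 4 at 7 Gy, at least 1.74-fold and 1.4-fold higher. Zmat3 (2.29), Psrc1 (2.2), Ei24 (1.83), Polk (1.41) and Trp53inp1 (1.37) also rose. Trp53 itself was not called (−0.74, adjusted p = 0.174), nor were Sesn2 (0.79), Ddb2 (−0.26), Xpc (−0.74), Btg2 (0.20) or Mdm4 (1.71).

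Of the apoptosis targets, Bax, which permeabilises mitochondria, was −1.84, −1.37, −1.41, −1.42 and −1.30 at 0 Gy and 0.54, 0.71, −0.08, −0.13 and 0.14 at 7 Gy, a change of 1.71 ± 0.24 (SE; adjusted p = 9.79e-05). Aen, a nuclease of apoptosis, was −3.42, −3.19, −3.19, −3.21 and −2.93 at 0 Gy and −0.76, −0.75, −1.53, −1.53 and −1.19 at 7 Gy, a change of 2.03 ± 0.27 (SE; adjusted p = 5.76e-05). In both genes the 7 Gy arrays lay above every 0 Gy array, and replicates 1 and 2 were the highest. Bbc3, which encodes the BH3 protein PUMA, was −5.20, −2.32, −2.12, −2.34 and −2.23 at 0 Gy and −0.42, −0.49, −0.93, −0.55 and −0.37 at 7 Gy; 0 Gy replicate 1 lay far below the other 0 Gy arrays, and the change was 2.47 ± 0.57 (SE; adjusted p = 0.00691). Tnfrsf10b, the TRAIL receptor, was well above background on no 0 Gy array and on all 7 Gy arrays (−4.38, −4.45, −5.56, −5.30 and −5.25), at least 3.39-fold higher. Perp was above background on 0 arrays at 0 Gy and on 3 at 7 Gy, at least 2.67-fold higher, but its arrays overlapped and it missed the threshold without 7 Gy replicate 5 (adjusted p = 0.111) and without replicate 2 (0.0529). Fas, a death receptor, was not called (0.68, adjusted p = 0.0944), although its 7 Gy arrays (−3.27, −3.28, −2.89, −2.84 and −2.61) lay above all 0 Gy arrays (−3.45, −3.71, −3.73, −3.73 and −3.50).

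Gadd45a, the DNA damage gene that gives the mouse line its name, fell. It was 0.28, 0.71, 0.56, 0.83 and 0.86 at 0 Gy and −1.09, −0.80, −1.63, −1.43 and −1.09 at 7 Gy. No 7 Gy array reached the lowest 0 Gy array. The means were 0.65 ± 0.26 (SD, n = 4) at 0 Gy and −1.19 ± 0.30 (SD, n = 3) at 7 Gy, a change of −1.84 ± 0.25 (SE; adjusted p = 7.95e-05), or 3.58-fold lower, and the probe lies at chr6:66985376-66985435 in mm9. Its relatives Gadd45b (0.48) and Gadd45g (0.57) were not called. Of the kinases in the p38 and JNK list, Map3k1 (−1.10) and Mapk12 (not above background on any 7 Gy array, at least 3.55-fold lower) fell. Among 26 tested genes used in human blood to estimate radiation dose, 10 rose and 2 fell; those that rose were Cdkn1a, Tnfrsf10b, Bbc3, Zmat3, Phlda3, Ccng1, Aen, Bax, Plk3 (1.69) and Rps27l (1.30), and those that fell were Gadd45a and the B cell coactivator Pou2af1 (−4.56). Fdxr, a dose marker in human blood, stayed uncalled, at −4.06, −4.20, −4.20, −4.25 and −4.32 against −4.14, −4.06, −4.17, −4.13 and −4.06 (change 0.10 ± 0.20, SE; adjusted p = 0.844), and Pcna was at −0.71 (adjusted p = 0.0589).

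B cell surface genes had the lowest median of the 48 lists. Of 21 tested genes of the B cell receptor and surface, 19 fell and 0 rose, against 8.07% of all genes, with a median change of −3.53. Of 18 B cell transcription factors, 11 fell and 0 rose (median −1.64). The surface list lay at −2.92, −3.14, −3.42, −3.90 and −3.67 on 7 Gy replicates 1 to 5, below 0 on all arrays. Of the 10 B cell markers fixed for checking cell types, 9 were well above background on all 0 Gy arrays, and 4 were not above background on any 7 Gy array.

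Cd79b, a signalling chain of the B cell receptor, was 2.08, 1.95, 1.85, 1.99 and 1.83 at 0 Gy and −1.84, −1.83, −3.52, −3.65 and −3.83 at 7 Gy. The 0 Gy arrays lay close together, while the 7 Gy arrays were all lower, replicates 3 to 5 the lowest. The means were 1.95 ± 0.11 (SD, n = 4) at 0 Gy and −3.09 ± 1.09 (SD, n = 3) at 7 Gy, a change of −5.04 ± 0.63 (SE; adjusted p = 3.27e-05), 32.8-fold lower. Vpreb3, a chaperone of the immunoglobulin heavy chain in B cells, fell from −0.44, −0.47, −0.55, −0.53 and −0.50 to below background on all 7 Gy arrays, at least 56.9-fold. Ms4a1, which encodes CD20, was −0.06, 0.09, 0.22, 0.06 and 0.24 at 0 Gy and −3.12, −3.17, −5.61, −5.39 and −6.54 at 7 Gy (change −5.16). Fcer2a, the low-affinity IgE receptor of follicular B cells, was also below background at 7 Gy (at least 17.8-fold lower), and Fcmr, the IgM receptor, fell by 5.67 on the log2 scale. Blnk (−3.79), Fcrla (at least 20.6-fold lower) and Ly6d (−4.97) fell as well, while Cd37 (−0.61), also on the surface list, was not called.

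The transcription factors that set B cell identity followed. Ebf1, the early B cell factor, was −4.08, −3.62, −3.55, −3.64 and −3.55 at 0 Gy and not above background at 7 Gy (at least 8.2-fold lower). Spib went from −0.76, −1.0, −1.15, −1.15 and −1.01 to −4.75, −5.40, −5.97, −6.16 and −6.74 (change −4.96 ± 0.63, SE; adjusted p = 3.53e-05) and Bcl11a from −2.15, −1.96, −1.96, −2.0 and −1.77 to −6.64, −5.87, −6.40, −7.02 and −8.18 (change −5.08); both kept a signal above background on some 7 Gy arrays only. Of the other Bcl11a probes, one was at −5.03 and one, at −0.79, was not called (adjusted p = 0.456). Pax5, above background on 2 arrays at 0 Gy and on 0 at 7 Gy, was not called (adjusted p = 0.106). In the BAFF system, which keeps B cells alive, 3 of 7 genes fell and 0 rose. The BAFF receptor Tnfrsf13c was −1.54, −1.40, −1.45, −1.34 and −1.39 at 0 Gy and below background on every 7 Gy array, at least 36.6-fold lower. That probe had the largest fitted decrease of the comparison (−6.04), while another Tnfrsf13c probe fell by only 1.56 (adjusted p = 0.0096). Tnfrsf13b, which encodes TACI, fell by 2.85 and was still above background on all 7 Gy arrays (−4.05, −4.04, −4.25, −4.44 and −4.13); its other probes (−0.76 and −1.52) were not called. The ligand Tnfsf13b was not called (1.31, adjusted p = 0.0994).

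MHC class II genes, which B cells, monocytes and dendritic cells use to present antigen to helper T cells, fell: 9 of 12 tested, 0 rose, median −3.31. The list was at −2.97, −2.86, −3.46, −3.47 and −3.38 on 7 Gy replicates 1 to 5. H2-Aa was 0.20, 0.05, 0.11, 0.30 and 0.39 at 0 Gy and −3.18, −3.07, −3.38, −3.42 and −3.35 at 7 Gy, and the 7 Gy arrays lay close together (change −3.53 ± 0.62, SE; adjusted p = 0.000759). H2-Ob fell by 4.01 on the log2 scale, Cd74, the invariant chain, by 3.47, and H2-DMb2 fell below background (at least 8.57-fold lower). The 3 that were not called were Ctss (−0.30), Ifi30 (−0.40) and the class II transactivator Ciita (−0.92).

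Of 17 genes of MHC class I and the immunoproteasome, 4 rose and 0 fell (median 0.55). Without 0 Gy replicate 1 the count was 2, and without 7 Gy replicate 5 it was 1. The transactivator Nlrc5 was −4.85, −3.22, −3.38, −3.31 and −3.31 at 0 Gy and −1.65, −1.58, −2.59, −2.44 and −2.17 at 7 Gy, higher on all 7 Gy arrays (change 1.59), but its other probe was not called (0.76, adjusted p = 0.294) and it missed the threshold without 0 Gy replicate 1 (adjusted p = 0.0615) or 7 Gy replicate 5 (0.0640). H2-T24 was −2.80, −3.17, −3.19, −3.57 and −3.22 at 0 Gy and −1.49, −1.54, −1.57, −1.65 and −1.69 at 7 Gy (change 1.59 ± 0.32, SE; adjusted p = 0.00221). H2 class I genes are near-identical copies, so that their probes may share signal.

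Most T cell receptor genes were not called, while 9 genes of naive T cells fell. Of 20 genes of the T cell receptor and coreceptors, 0 rose and 1 fell, Cd8a (−1.89), with a median of 0.13; Cd8a missed the threshold when any of 5 arrays (0 Gy replicates 1, 4 or 5, 7 Gy replicates 4 or 5) was left out. A second Cd8a probe, of lower mean, changed more, by −3.59 (adjusted p = 6.97e-07). Cd3e was 0.76, −0.07, −0.20, −0.36 and −0.19 at 0 Gy and 1.09, 0.98, 0.24, 0.24 and −0.05 at 7 Gy and was not called. On 7 Gy replicates 1 and 2 this list had medians of 0.59 and 0.66, and on replicates 3 to 5 of −0.03, −0.14 and −0.05. Of 20 genes of naive T cells and homing, 9 fell and 1 rose (median −0.64), at −0.59, −0.70, −0.84, −0.79 and −0.70 on the 5 arrays.

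Ccr7, the receptor that guides naive T cells and B cells to lymph nodes, was −0.12, 0.19, 0.06, −0.03 and −0.06 at 0 Gy and −3.82, −4.16, −4.45, −4.69 and −4.67 at 7 Gy. All 7 Gy arrays lay far below all 0 Gy arrays, and the change was −4.39 ± 0.36 (SE; adjusted p = 6.52e-07), 21-fold lower. Tcf7, a transcription factor of naive and memory T cells, was −2.99, −3.0, −2.90, −2.92 and −2.95 at 0 Gy and −4.87, −4.74, −5.33, −5.12 and −5.55 at 7 Gy (change −2.24 ± 0.27, SE; adjusted p = 1.87e-05). Lef1 (−1.53), Il7r (−1.48), S1pr1 (−2.04) and Bach2 (−3.21) fell too, and Dapl1, high in resting T cells, fell by 5.76. Among lymphocyte chemokine receptors, 7 of 19 fell and 2 rose (1 rose without 0 Gy replicate 1, 4 or 5 or 7 Gy replicate 5). The largest decreases were those of Ccr6, below background at 7 Gy (at least 24-fold lower), and of the B cell follicle receptor Cxcr5 (−4.48); Cxcr3, a receptor of activated T cells and NK cells, rose by 1.19, from −1.86, −1.77, −1.76, −1.72 and −1.74 to −0.11, −0.01, −0.84, −0.79 and −0.87.

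Some genes of killing and of activated lymphocytes rose. Of 21 cytotoxic effectors, 8 rose and 0 fell (median 0.80); the count was 4 without 0 Gy replicate 1 or 7 Gy replicate 5 and 5 without 0 Gy replicate 4 or 5. Gzmb, the protease granzyme B, was −3.25, −3.70, −3.70, −3.66 and −3.77 at 0 Gy and −1.43, −1.16, −1.62, −1.61 and −1.59 at 7 Gy, with no overlap (change 2.10 ± 0.25, SE; adjusted p = 2.12e-05). Fasl (1.86), Ifng, which encodes interferon gamma (1.5), and Nkg7 (1.38) also rose, and Prf1, the pore-forming perforin, was not called (0.21). Il2rb, the shared receptor chain for interleukins 2 and 15, was −1.32, −0.95, −0.88, −0.91 and −0.99 at 0 Gy and 1.25, 1.24, 0.58, 0.50 and 0.68 at 7 Gy (change 1.86 ± 0.33, SE; adjusted p = 0.000767), highest on replicates 1 and 2. Of 14 genes of T cell activation and checkpoints, 3 rose and 0 fell: Il2rb, Il2ra (the inducible receptor chain for interleukin 2, 1.78) and Tbx21 (the transcription factor T-bet, 0.98). NK receptors had 2 of 20 that rose, Il2rb and Klrb1c, and 0 that fell, while 5.65% of all genes rose. Il2rb is on both this list and the T cell activation list. Without 0 Gy replicate 1, 4 or 5 or without 7 Gy replicate 5, only 1 of the 20 rose, a share near that of all genes. The cytotoxic list was at 1.08 and 1.23 on 7 Gy replicates 1 and 2 and at 0.51, 0.62 and 0.62 on replicates 3 to 5.

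Interferon-stimulated genes rose. Interferons are secreted alarm proteins whose receptors signal through STAT and IRF factors to promoters that hold a GAAA repeat, the interferon-stimulated response element. Of 38 effectors of the Ifit and Oas kind, 26 rose and 0 fell, with a median change of 1.69; of 15 interferon-inducible GTPases, 11 rose and 0 fell (median 1.30); of 31 genes of sensing and signalling, 9 rose and 1 fell (median 0.19). The effector list was at 1.28, 1.61, 1.77, 1.89 and 1.91 on 7 Gy replicates 1 to 5 and the GTPase list at 1.42, 1.53, 1.34, 1.07 and 1.19. The summed linear level of the effectors, in which bright probes weigh most, overlapped between the doses, at 99.8 to 127 at 0 Gy and 89.1 to 131 at 7 Gy; Isg20, Isg15 and Rsad2, whose probes weigh most in it, were not called (changes of −0.62, −0.21 and −0.93).

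Ifit3, an antiviral protein of the tetratricopeptide family, had the smallest adjusted p of all genes. It was −5.01, −5.08, −5.11, −5.21 and −5.15 at 0 Gy and −0.69, −0.35, 1.28, 1.0 and 1.28 at 7 Gy. The 0 Gy arrays lay close together, and the 7 Gy arrays stood far above them, replicates 3 to 5 the highest. The means were −5.12 ± 0.09 (SD, n = 4) at 0 Gy and 0.63 ± 1.0 (SD, n = 3) at 7 Gy, a change of 5.75 ± 0.35 (SE; adjusted p = 1.02e-07), 53.9-fold. Its near copy Ifit3b rose by 6.23, or by 2.87 on its other probe, and probes of both genes may share signal. Oas2, a sensor of double-stranded RNA, rose by 4.05 ± 0.41 (SE; adjusted p = 4.12e-06), from −4.60, −4.34, −4.76, −4.71 and −4.30 to −1.12, −1.16, −0.27, −0.18 and −0.10, and Rtp4 by 4.01. Usp18 (2.87), Mx1 (2.48), Ifit1 (3.27), Oasl1 (3.92) and Ifi27l2a (3.47) rose as well. Other members were not called: Isg15, the ubiquitin-like interferon protein, was 2.65, 2.63, 2.64, 2.59 and 2.90 at 0 Gy and 2.90, 2.83, 2.27, 2.18 and 2.37 at 7 Gy and did not pass the test, nor did Rsad2 (−0.93, adjusted p = 0.668), with 4 of its 0 Gy arrays above all 7 Gy arrays and 0 Gy replicate 1 below them.

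The sensors and regulators split. Ifih1, the RNA sensor MDA5, was −5.12, −5.64, −5.59, −5.68 and −5.31 at 0 Gy and −3.85, −3.68, −3.24, −3.26 and −2.92 at 7 Gy (change 2.12 ± 0.26, SE; adjusted p = 2.56e-05). Socs1, the feedback inhibitor of interferon signalling, was −3.85, −3.89, −3.75, −3.71 and −3.64 at 0 Gy and −1.70, −1.48, −1.86, −1.73 and −1.67 at 7 Gy; the 7 Gy arrays lay close together and well above 0 Gy (change 2.07 ± 0.19, SE; adjusted p = 1.80e-06). Zbp1 (2.0), Irf7 (1.18), Irf9 (1.46) and Stat2 (1.24) rose. Sting1, the adaptor of the DNA sensor cGAS, fell by 1.23, from −1.02, −1.04, −1.16, −1.15 and −0.92 to −2.05, −1.80, −2.51, −2.54 and −2.38, and the receptor chains Ifnar1 (−0.66) and Ifngr1 (−0.29) were not called. Irgm1, a GTPase that acts on vacuoles of intracellular microbes, was −3.24, −3.21, −3.30, −3.20 and −3.17 at 0 Gy and −1.76, −1.57, −1.23, −1.18 and −1.10 at 7 Gy (change 1.90 ± 0.20, SE; adjusted p = 5.86e-06). Slfn4, an interferon-responsive gene of myeloid cells listed here with mature neutrophil genes, rose by 5.43 ± 0.44 (SE; adjusted p = 6.52e-07), from −5.94, −5.02, −5.23, −5.34 and −5.36 to −1.09, −0.98, 0.40, 0.43 and 0.58.

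The core of the response element, GAAA, 2 further bases and GAAA on either strand, was searched in RefSeq promoters (250 bases before to 50 after each start, GRCm38.p6). It was present in 9 of 10 GTPase genes with a promoter in the table (90.0%), in 14 of 30 effectors (46.7%) and in 8 of 27 sensing genes (29.6%), against 3.99% of all promoters. Of the genes that rose, 51 of 617 with a promoter held it (8.27%), and of those that fell 25 of 697 (3.59%). The 250 bases before the start are shown for 3 genes that rose and hold it, from the effector, GTPase and sensing lists, with the core and its overlapping copies in capitals. They lie at chr19:34583279-34583528 (Ifit3, plus strand), chr11:48871421-48871670 (Irgm1, minus strand) and chr16:10785537-10785786 (Socs1, minus strand), each read 5′ to 3′ along its gene.
Ifit3: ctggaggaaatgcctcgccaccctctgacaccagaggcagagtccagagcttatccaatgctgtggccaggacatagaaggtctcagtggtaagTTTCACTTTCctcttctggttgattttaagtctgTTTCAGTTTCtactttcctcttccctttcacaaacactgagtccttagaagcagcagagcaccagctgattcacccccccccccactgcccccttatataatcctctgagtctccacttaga
Irgm1: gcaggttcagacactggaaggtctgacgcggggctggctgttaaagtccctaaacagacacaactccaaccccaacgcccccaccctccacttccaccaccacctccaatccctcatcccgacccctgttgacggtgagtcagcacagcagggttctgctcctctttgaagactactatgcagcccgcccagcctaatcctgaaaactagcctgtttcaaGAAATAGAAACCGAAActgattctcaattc
Socs1: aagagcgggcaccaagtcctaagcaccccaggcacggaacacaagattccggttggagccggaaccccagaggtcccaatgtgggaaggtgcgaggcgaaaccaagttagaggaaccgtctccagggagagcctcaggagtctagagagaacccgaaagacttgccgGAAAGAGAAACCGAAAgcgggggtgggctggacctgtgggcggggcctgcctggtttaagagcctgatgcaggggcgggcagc
Ifit3 holds 2 separate cores on the other strand, which read as TTTC repeats. Irgm1 holds 2 overlapping cores from 30 bases before the start, and Socs1 2 overlapping cores from 83 bases before it. The matches are a description of letters, and binding was not measured. Of the other motifs searched on both strands, the STAT letters TTCNNNGAA were in 6 of 10 GTPase promoters (60.0%, against 9.55% of all), the EBF letters TCCC, 2 further bases and GGGA in 1 of 14 B cell surface promoters (7.14%, against 1.06%), and the HNF1 palindrome in 0 of 31 hepatocyte promoters (0.0111% of all).

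**Figure D2:**
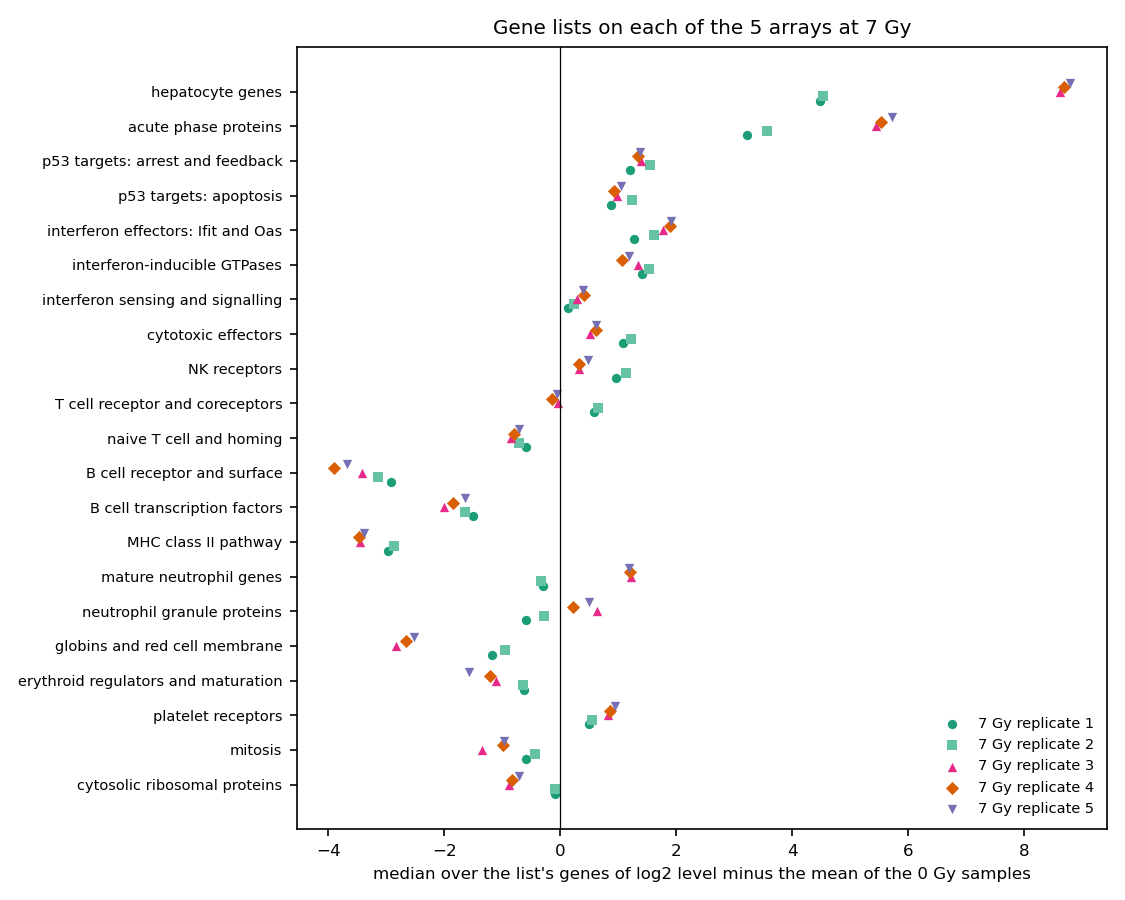
For 21 gene lists, each symbol gives the median over the list's genes of the log2 level on 1 of the 5 arrays at 7 Gy minus the mean of the 0 Gy samples. The p53, interferon, B cell and MHC class II lists lie on 1 side of 0 on all 5 arrays, while the mature neutrophil list lies at −0.30 and −0.33 on replicates 1 and 2 and at 1.20 to 1.22 on replicates 3 to 5.

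Monocyte and macrophage genes moved both ways. Of 31 such genes, 4 rose and 6 fell (median −0.02), and the list was at 0.12, 0.15, 0.04, −0.08 and −0.10 on 7 Gy replicates 1 to 5. Their summed linear level was higher on every 7 Gy array, at 27.8 to 33.2 against 18.6 to 23.6 at 0 Gy. Without 7 Gy replicate 5 the counts that rose and fell were 2 and 2, and without 0 Gy replicate 1, 4 or 5 the rises were 2. The 3 chains of complement C1q, which tags dying cells for removal and is made by macrophages, rose. C1qa was −4.93, −5.07, −5.15, −4.91 and −5.15 at 0 Gy and −0.89, −0.80, −1.18, −1.16 and −1.09 at 7 Gy, and C1qc was −4.17, −4.19, −4.24, −4.11 and −4.38 at 0 Gy and −0.01, −0.01, −0.26, −0.24 and −0.38 at 7 Gy. For both genes the arrays of a dose lay close together and the doses far apart. The changes were 3.99 ± 0.99 (SE; adjusted p = 0.0113) for C1qa and 4.0 ± 0.95 (SE; adjusted p = 0.0083) for C1qc; the standard errors come from a fit of all 4 groups of the series. C1qb rose by 2.76 and missed the threshold without any of 0 Gy replicates 1, 4 or 5 or 7 Gy replicate 5. Each of these arrays is a sample of its own, so that n was lower without it. Cx3cr1, the fractalkine receptor of patrolling monocytes, fell from −2.34, −1.97, −1.97, −1.93 and −1.74 to −4.11, −4.08, −4.88, −5.66 and −5.16 (change −2.85 ± 0.46, SE; adjusted p = 0.000382), and Ccr2, the receptor by which inflammatory monocytes leave the marrow, fell by 1.80. Csf1r (0.08) and Lyz2 (−0.35), general monocyte genes, were not called.

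Neutrophil genes differed between the 7 Gy arrays. Of 24 mature neutrophil genes, 2 rose (Slfn4 and Ly6g) and 0 fell, with a median of 0.59. The share that rose, 8.33%, was near that of all genes (5.65%). With replicates 3 to 5 as the only 7 Gy arrays, 8 rose. S100a8 was 4.60, 4.16, 4.06, 4.08 and 3.98 at 0 Gy and 3.21, 3.30, 4.96, 4.86 and 4.88 at 7 Gy: replicates 1 and 2 lay below and replicates 3 to 5 above all 0 Gy arrays. Of 21 granule genes, Orm1 rose (4.49), which the liver also secretes, and Chil3 fell. Chil3, a chitinase-like protein, was 3.96, 4.0, 4.08, 4.19 and 4.39 at 0 Gy and −0.54, −0.46, 1.81, 1.90 and 2.23 at 7 Gy, lower on all 7 Gy arrays and lowest on replicates 1 and 2 (change −2.95 ± 0.56, SE; adjusted p = 0.00142). Camp, a granule protein of maturing neutrophils, was not called (−0.84, adjusted p = 0.0676). Of 14 eosinophil and basophil genes, the eosinophil ribonucleases Ear1 (−1.56), Ear2 (−1.49) and Ear10 (−1.66) and the receptor Il5ra (−1.53) fell, and Il4 (1.33) and Alox15 (3.38) rose; Alox15 missed the threshold without 0 Gy replicate 4 or 5 or 7 Gy replicate 5. Of 19 Toll-like receptor genes, 3 fell and 0 rose (1 fell without 0 Gy replicate 5 or 7 Gy replicate 5), although the median was 0.18. This list turned sign between the 7 Gy sets, with medians of −0.58 and −0.36 on replicates 1 and 2 and of 0.48, 0.34 and 0.39 on replicates 3 to 5. The NF-kB list did so too (−0.21 and −0.22, against 0.22, 0.39 and 0.25), as did the granule list (−0.59 and −0.28, against 0.64, 0.23 and 0.50). NF-kB and inflammatory cytokine genes fell in 2 of 20 and rose in 1, near the shares over all genes (8.07% and 5.65%). The called shares of the granule list were also near these. The NF-kB falls were 0 without 0 Gy replicate 1, 4 or 5 or 7 Gy replicate 5. The NF-kB gene that rose was the interferon-induced chemokine Cxcl10 (at least 2.39-fold higher), while Il1b (0.39) and Tnf (0.07) were not called.

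Red cell transcripts fell in part. Of 25 genes of globins and the red cell membrane, 14 fell and 0 rose (median −2.09); of 23 erythroid regulators, 11 fell and 1 rose (median −0.98); of 20 genes of heme synthesis and iron, 11 fell and 0 rose (median −0.73), or 6 without 0 Gy replicate 5 or 7 Gy replicate 5. The membrane list was at −1.18 and −0.96 on 7 Gy replicates 1 and 2 and at −2.83, −2.65 and −2.53 on replicates 3 to 5. Slc4a1, the band 3 anion exchanger, was 4.41, 3.99, 3.87, 3.86 and 3.71 at 0 Gy and 1.71, 1.77, 0.17, −0.14 and −0.27 at 7 Gy. Every 7 Gy array was lower, replicates 3 to 5 most, and the change was −3.48 ± 0.41 (SE; adjusted p = 1.80e-05), 11.2-fold lower. Epb42, a protein of the red cell membrane skeleton, fell by 3.68 on the log2 scale, with its other probe at −2.06. The globins themselves were not called: Hba-a1 was 8.85, 8.06, 7.93, 7.40 and 8.57 at 0 Gy and 8.99, 9.04, 8.35, 8.52 and 9.01 at 7 Gy (change 0.62), and Hbb-b1 changed by 0.27. Copies of the globin genes are near-identical and their probes may share signal.

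Among regulators of red cell maturation, Car2, carbonic anhydrase 2, was 3.44, 3.42, 3.39, 3.54 and 3.59 at 0 Gy and 1.15, 1.19, −0.25, −0.11 and −0.04 at 7 Gy (change −3.18 ± 0.37, SE; adjusted p = 1.66e-05). Bcl2l1, which encodes Bcl-xL and keeps maturing red cells alive, went from 4.58, 4.66, 4.42, 4.35 and 4.45 to 2.66, 2.67, 2.34, 2.33 and 2.22 (change −2.07), and Bnip3l, which clears their mitochondria, fell by 2.09; these 2, with Bmf (−1.39), were the 3 of 12 Bcl2 family genes that fell, in a list whose median was −0.16 and −0.12 on 7 Gy replicates 1 and 2 and 0.21, 0.41 and 0.45 on replicates 3 to 5. Ube2o (−2.54), Trim10 (−2.65) and Trim58, not above background at 7 Gy (at least 3.54-fold lower), fell too. Of the heme genes, the mitochondrial iron importer Slc25a37 fell by 2.73, from 5.85, 6.05, 5.82, 5.96 and 6.06 to 4.31, 4.28, 2.59, 2.64 and 2.75, but its other probe was not called (−0.58, adjusted p = 0.446). Alas2, the enzyme that starts heme synthesis in red cells, was not called (−0.30). Gata1 (0.27) and Klf1 (−0.96), the erythroid transcription factors, were not called either.

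Platelet genes rose in part. Of 22 platelet receptor genes, 4 rose and 1 fell (median 0.78), and of 33 platelet granule and cytoskeleton genes, 7 rose and 1 fell (median 0.66). The receptor list was at 0.51, 0.55, 0.83, 0.86 and 0.94 on 7 Gy replicates 1 to 5. The receptor count that rose was 2 without any of 0 Gy replicates 1, 4 or 5 or 7 Gy replicates 4 or 5. The granule count that rose was 3 without 0 Gy replicate 4, 4 without 0 Gy replicate 5 and 2 without 7 Gy replicate 5. F5, coagulation factor V, was −1.28, −1.19, −1.29, −1.22 and −1.16 at 0 Gy and −0.29, −0.23, −0.03, 0.09 and 0.12 at 7 Gy, close within each dose and apart between them (change 1.19 ± 0.19, SE; adjusted p = 0.000398). Selp, which encodes P-selectin, was −5.68, −5.10, −4.94, −5.18 and −5.29 at 0 Gy and −3.77, −3.92, −3.70, −3.68 and −3.74 at 7 Gy (change 1.53). Pf4, platelet factor 4, a chemokine of platelet granules, was not called (1.77); its 0 Gy arrays were 0.90, 5.86, 5.80, 5.97 and 5.80, with replicate 1 far below the rest.

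Genes of dividing cells fell in part. Of 19 tested genes of mitosis, 8 fell and 0 rose (median −0.82), at −0.58, −0.43, −1.35, −0.99 and −0.97 on 7 Gy replicates 1 to 5. Ccna2, cyclin A2, which drives S phase and entry into mitosis, was −2.23, −1.86, −2.11, −1.98 and −2.02 at 0 Gy and −4.48, −4.19, −5.73, −5.27 and −5.62 at 7 Gy, lower on all 7 Gy arrays and lowest on replicates 3 to 5 (change −3.10 ± 0.32, SE; adjusted p = 5.49e-06). Ube2c, the ubiquitin enzyme of the anaphase complex, was 3.02, 2.63, 2.57, 2.77 and 2.36 at 0 Gy and 0.75, 0.89, −0.15, −0.31 and −0.35 at 7 Gy (change −2.61 ± 0.34, SE; adjusted p = 4.68e-05). Nusap1 (−2.88), Cdca3 (at least 1.95-fold lower), Birc5 (−1.38) and the proliferation marker Mki67 (−1.39) fell, and Cdk1 (0.29) and Tpx2 (0.16) were not called. The promoters of the mitosis list held the cell cycle homology letters TTTGAA in 20 of 28 cases (71.4%, against 20.2% of all promoters) and CCAAT in 21 of 28 (against 41.1%); this describes the list, whether or not its members fell. Of 27 replication genes, 5 fell and 1 rose (median −0.59), led by Pold1, a DNA polymerase subunit (−2.01), and the licensing factor Cdt1 (−1.48); the falls were 3 without 0 Gy replicate 4 or 5 and 2 without 7 Gy replicate 5.

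Few DNA repair genes were called, and 0 rose. Of 17 genes of homologous recombination and crosslink repair, 1 fell (5.88%, against 8.07% of all genes), Fanca (−1.33; not called without 0 Gy replicate 1 or 5 or 7 Gy replicate 4 or 5), and of 26 genes of end joining and excision repair, 4 fell (15.4%): Apex1, Msh6, Xpa and Fen1, with changes of −1.59 to −0.75. In that list 21 of 26 genes were lower (median −0.46), at −0.11 and −0.15 on 7 Gy replicates 1 and 2 and at −0.46, −0.57 and −0.79 on replicates 3 to 5; without 0 Gy replicate 4 or 7 Gy replicate 5, 2 genes of the list fell. In the p53 circuit and checkpoint kinases, 1 of 13 fell (7.69%, against 8.07% of all genes), Topbp1 (−1.17), a count that was 0 to 2 as single arrays were left out. Under normexp background correction Fanca, Apex1, Msh6, Fen1 and Topbp1 turned positive. The other Xpa probe was not called (−0.70, limma adjusted p = 0.0696). Atm, the kinase that senses double-strand breaks, was above background on 4 arrays at 0 Gy and on 0 at 7 Gy and was not called (adjusted p = 0.409).

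Stress and housekeeping lists, other than heat shock chaperones, held more genes that fell than rose. The share that fell was 18.5% of ribosomal protein genes, 18.2% of ATF4 targets, 15.4% of oxidative stress genes and 11.8% of oxidative phosphorylation genes, against 8.07% of all genes. Sod2, the mitochondrial superoxide dismutase, fell from 2.58, 1.89, 1.94, 1.92 and 1.99 to −0.16, −0.12, −0.61, −0.61 and −0.33 (change −2.46 ± 0.24, SE; adjusted p = 3.76e-06); the peroxidase Gpx1, abundant in red cells, fell by 2.15, Gclm, which limits glutathione synthesis, by 1.87, and Nqo1 by 1.38, so that 4 of 26 oxidative stress genes fell. The list's summed linear level was 275 to 334 at 0 Gy and 109 to 175 at 7 Gy, but its median turned sign, at −0.35 and −0.25 on 7 Gy replicates 1 and 2 and 0.31, 0.32 and 0.27 on replicates 3 to 5. The probe named Gstm1 rose (−3.25, −3.23, 0.44, 0.61 and 0.44 at 7 Gy, −3.74, −3.63, −3.67, −3.51 and −3.75 at 0 Gy), but the files place it on chromosome 5 and RefSeq places the gene on chromosome 3, so its identity is uncertain. Of 22 ATF4 targets, 4 fell and 0 rose (1 without 7 Gy replicate 5), yet 14 were higher, and the median was −0.36 and −0.09 on 7 Gy replicates 1 and 2 and 0.27, 0.39 and 0.37 on replicates 3 to 5. The amino acid transporter Slc7a5 was among those that fell (−2.62), but its other probe was not called (−0.14, adjusted p = 0.963). Hspb1, a small heat shock protein, rose (3.25) and was the only one called of 21 chaperones (4.76%, against 5.65% of all genes that rose). Of 54 cytosolic ribosomal protein genes, 10 fell and 0 rose (median −0.57), and 50 were lower. Without 0 Gy replicate 1, 6 fell, without 0 Gy replicate 4 or 5, 3 fell, and without 7 Gy replicate 5, 2 fell. The list was at −0.09 and −0.08 on 7 Gy replicates 1 and 2 and at −0.87, −0.84 and −0.70 on replicates 3 to 5. In 15 of the 54 genes every 7 Gy array lay below every 0 Gy array, against 16.5% of all genes. Oxidative phosphorylation had 4 of 34 that fell (2 without 0 Gy replicate 1 or 7 Gy replicate 5) and the proteasome 1 of 28 (3.57%, against 8.07% of all genes). Of 22 immediate-early genes, Jun rose (1.36) and Nr4a1 (−1.52) and Jund (−1.02) fell. These shares, 4.55% and 9.09%, were near those over all genes (5.65% and 8.07%). Of this list, 1 gene fell without 0 Gy replicate 4 or 5 and 0 without 7 Gy replicate 5. Myc was not called (−0.44), and its 0 Gy replicate 1 was not above background. The median of the immediate-early list was −0.68 and −0.39 on 7 Gy replicates 1 and 2 and 0.21, 0.21 and 0.36 on replicates 3 to 5.

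**Figure D3:**
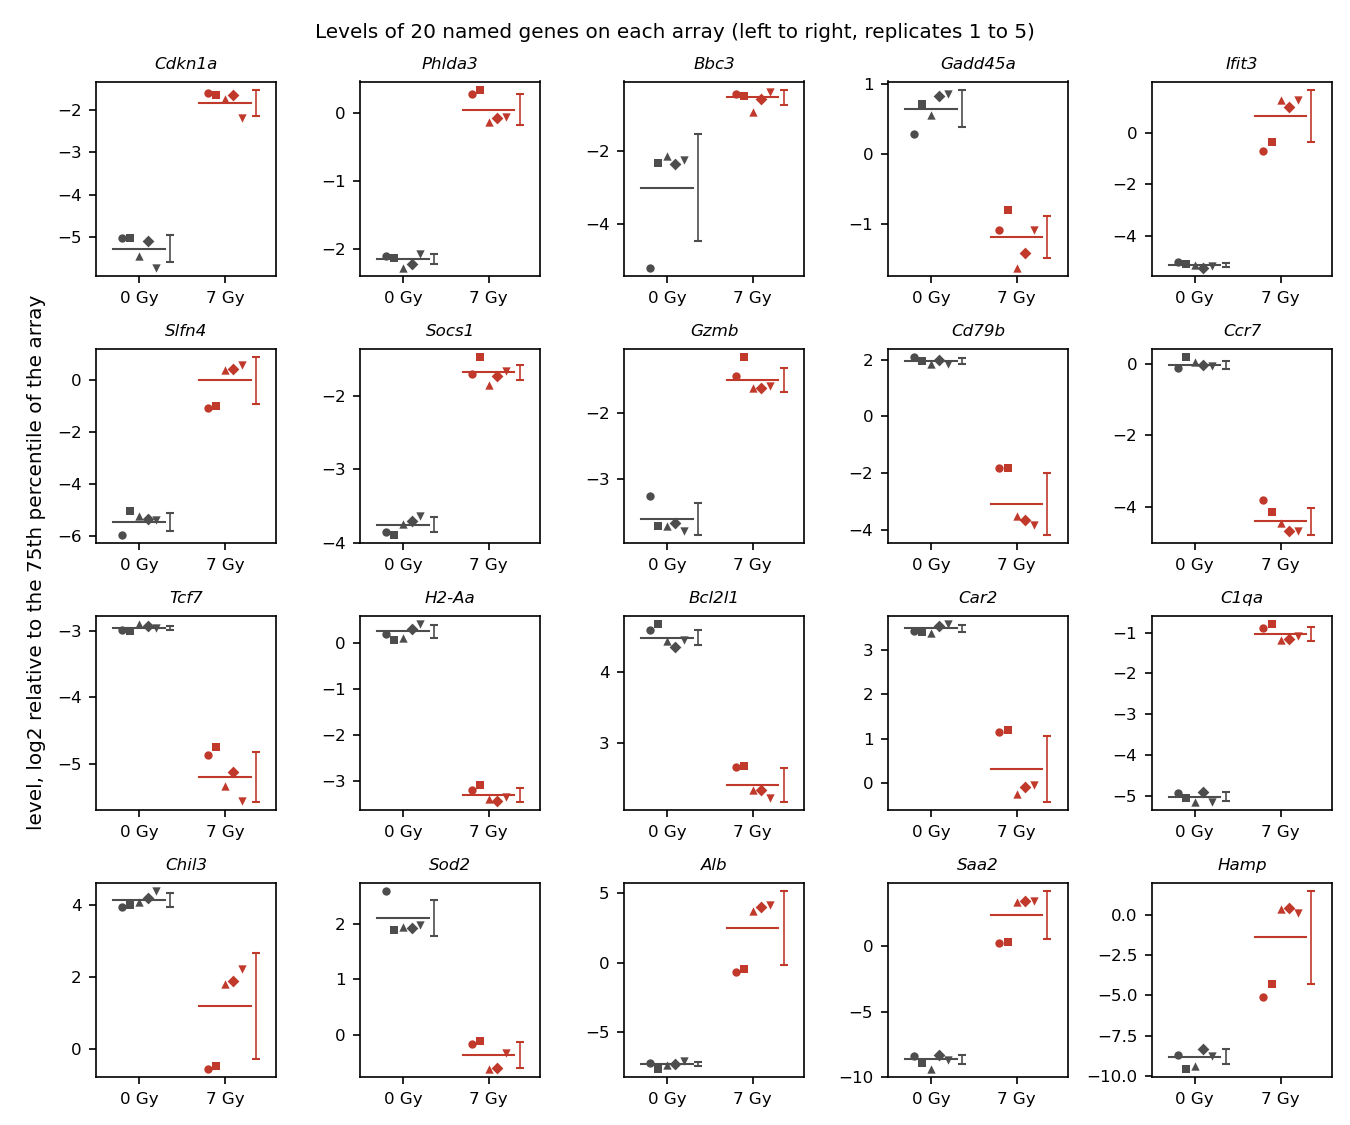
Each panel gives the level of 1 gene (log2 relative to the array's 75th percentile) on the 5 arrays at 0 Gy (grey) and the 5 at 7 Gy (red); symbols from left to right are replicates 1 to 5, bars are means and whiskers SDs over 4 and 3 samples, and each panel has its own vertical axis. Cdkn1a, Socs1, C1qa and H2-Aa lie at like levels on all 7 Gy arrays, while Alb, Saa2 and Hamp are higher on replicates 3 to 5 than on replicates 1 and 2.

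The largest increases of the comparison were liver transcripts. The liver makes albumin, apolipoproteins and, in inflammation, acute phase proteins; some acute phase genes, such as Saa3, C3 and Lcn2, are also expressed by leukocytes. Of 39 tested hepatocyte genes, 37 rose and 0 fell, with a median change of 7.26. Of 21 acute phase genes, 16 rose and 0 fell (median 5.08). The number of the 39 hepatocyte genes above background was 7 to 16 on the 0 Gy arrays, 37 and 36 on 7 Gy replicates 1 and 2, 39 on replicates 3 and 4, and 38 on replicate 5. These genes took 0.00682% to 0.00894% of the summed level of all genes at 0 Gy, 0.0707% and 0.0698% on 7 Gy replicates 1 and 2, and 1.44%, 1.45% and 1.42% on replicates 3 to 5.

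Alb, which encodes albumin, was not above background on any 0 Gy array and was −0.67, −0.47, 3.71, 3.97 and 4.13 on 7 Gy replicates 1 to 5, at least 609-fold higher. Replicates 3 to 5 lay close together and far above replicates 1 and 2. The limma adjusted p was 5.75e-05, and its probe lies at chr5:90901598-90901657 in mm9. Saa2, an acute phase apolipoprotein, had the largest fitted change, from not above background to 0.19, 0.30, 3.35, 3.39 and 3.39, at least 559.9-fold. Serpina1a, an antitrypsin, was −7.19, −5.95, −5.72, −6.55 and −6.07 at 0 Gy and 1.20, 1.22, 4.91, 4.87 and 5.01 at 7 Gy; Serpina1d and Serpina1e are near copies. Hamp, the iron hormone hepcidin, was −5.10, −4.30, 0.37, 0.39 and 0.10 at 7 Gy and not above background at 0 Gy (at least 41.9-fold higher). The 15 largest increases named outside these lists were of families made by liver: 7 Mup genes or pseudogenes of the major urinary proteins, Kng1 (kininogen, at least 159.5-fold higher), Mug1 and Mug2 (murinoglobulins, at least 106-fold and 54.3-fold), the cytochromes Cyp2d26, Cyp2d10 and Cyp4a14, Apoc4 and the plasma protein Vtn (at least 40.5-fold). Copies of Mup genes are near-identical, and single members cannot be told apart by these probes.

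Markers of lung, muscle, kidney, skin and pancreas showed little. Of 7 lung markers 2 were tested and 0 called, of 11 heart and skeletal muscle markers 4 were tested and 0 called, and of 13 kidney, skin and pancreas genes 3 were tested and 0 called. Of 6 tested endothelium and stroma genes, Dcn (3.30) and Col1a2 (1.77) rose (33.3%, against 5.65% of all genes), and 1 gene rose without 0 Gy replicate 4 or 7 Gy replicate 5. All 6 were higher, with a median change of 1.31. The list was at 1.54, 1.08, 1.53, 1.20 and 1.45 on 7 Gy replicates 1 to 5. Dcn was −5.03, −5.12, −4.87, −5.57 and −5.02 at 0 Gy and −2.28, −2.58, −1.56, −1.46 and −1.62 at 7 Gy. The summed level of the 6 was 1.87 to 3.77 at 0 Gy and 1.89 to 6.22 at 7 Gy, which overlap. Kdr, the brightest of them, weighs most in that sum and was not called (0.08).

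Some genes crossed the detection limit altogether. At 7 Gy, 128 genes were well above background on all arrays and on no 0 Gy array. Genes picked in this way, in either direction, are likely to be called, and 111 of the 128 were, against 13.7% of all genes. Of the 128, 28 belonged to the hepatocyte or acute phase lists, which hold 39 and 21 of the 15779 genes tested. The median increase of the 128 was at least 15.1-fold. In the other direction, 118 genes were above background on all 0 Gy arrays and on no 7 Gy array, 107 of them called and 0 in the liver lists, with a median decrease of at least 3.63-fold. Besides the B cell genes above, they included Nsg2 (at least 14.8-fold lower), Xkrx (at least 8.24-fold lower) and B3gnt5, a glycosyltransferase (at least 8.32-fold lower). A bound compares the brighter group with the lowest signal above background on each array of the dim group, or the dim probe's own signal where higher.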

How the data were processed

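Blood RNA was hybridised to one-colour Agilent arrays with Cy3 label, per the labels. The deposited scanner files hold each spot's intensity after the scanner software's background subtraction (Agilent Feature Extraction 12.0.2, per the submitters' processing notes), with probe positions in mm9 per the file headers. The number of arrays limits the precision. A deposited value table was used only as an alternative: its values proved to be log2 of the same processed signals plus a constant per array (0 to 1.54), in which centring by the authors is not given in the sources used here. Its column medians were 5.75, 6.03, 6.39, 6.40 and 6.00 for wild type at 0 Gy, 5.87, 5.93, 6.30, 6.22 and 6.12 for wild type at 7 Gy, 5.93, 6.19, 6.36, 6.41 and 6.41 for knockout at 0 Gy, and 5.82, 6.09, 6.10, 6.53, 7.18, 6.37, 6.20, 5.81 and 6.23 for knockout at 7 Gy.

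From the scanner files, control spots were left out, repeat spots averaged, and log2 signals scaled to each array's 75th percentile (7851 probes, those that every array measured well above background). Of 39429 probes, 19646 were well above background on at least 5 of the 24 arrays of both genotypes, and each of 15779 genes was represented by its probe of highest mean. Probes were named through accessions (29109), symbols (2968) or older symbols (138) in RefSeq, and by the files' own names otherwise (7214). Arrays of a group that differed by no more than repeat spots were averaged. One limma fit (3.58.1, R 4.3.3) covered all 4 genotype and dose groups, two-sided, with Benjamini-Hochberg adjustment over all genes and a threshold of 0.05; the steps were tested on simulated data. A change is the log2 difference, 7 Gy minus 0 Gy. A gene above background on no array of a group has only a bound on its fold.

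Named genes were the 15 largest called changes in each direction with a proper symbol, full detection in the brighter group and no overlap, outside liver and organ lists; the 5 largest liver increases; up to 4 called members of each of 48 lists and up to 3 that moved against their list; 21 fixed genes; and up to 10 switched genes in each direction. Other genes with values in the text were chosen after their values were seen. Members and lists were chosen with earlier results of these data known. Lists are described by counts and medians, with no set test. Promoters came from RefSeq (GRCm38.p6), and no coordinates were moved between builds. Replicate numbers mark slides. Deviations of same-numbered arrays correlated at 0.06, 0.06, 0.48, 0.26 and 0.44 over 12364 probes, and those of differently numbered arrays at −0.38 to 0.35. The design text names no pairing, and the numbers were not taken as pairs. The main fit holds no slide term, and what arrays of slides 3 to 5 may share was not tested.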

Additional observations from a re-analysis of the deposited data

Results flagged for a closer look

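Among the 188 named genes, 21 had 1 of the 4 samples at 0 Gy set apart from the other 3, with a gap over Dixon's 95% critical value; chance gives about 1 in 20 groups. In 15 of them the sample was 0 Gy replicate 1, the array with the noisiest repeat spots. Levels are log2 relative to the 75th percentile.

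Replicate 1 was lower than the others for Nsg2 (−4.60, others −2.35 to −2.22), Chst3 (−4.72, others −2.17 to −1.90), Bbc3 (−5.20, others −2.34 to −2.22), Nlrc5 (−4.85, others −3.31 to −3.30), Tlr1 (−5.57, others −3.41 to −3.32), Ank1 (−7.55, others −3.31 to −2.98), Hspb1 (−7.43, others −5.43 to −5.11) and Myc (−7.36, others −4.46 to −4.41). It was lower by less for Ccna2 (−2.24, others −2.02 to −1.98), Ccnb2 (−1.85, others −1.72 to −1.71) and Ebf1 (−4.08, others −3.64 to −3.55). It was higher for Irgm2 (−3.20, others −3.62 to −3.55), Trim58 (−4.64, others −5.04 to −4.99), Sod2 (2.58, others 1.92 to 1.99) and Rps16 (5.58, others 4.72 to 4.84).

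Replicate 4 stood apart for Mup17 (−6.53, others −8.77 to −8.42), Trim10 (−0.00606, others −0.27 to −0.23), Tpm1 (−0.58, others −0.74 to −0.71) and Dcn (−5.57, others −5.03 to −5.00). Replicate 5 stood apart for Bnip3l (5.63, others 5.46 to 5.48) and Cxcl10 (−8.63, others −7.66 to −7.53).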

How the results depend on the processing

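The main fit called 891 genes that rose and 1273 that fell. Counts within 1.5 times of these came from median scaling (967 and 1227), the percentile over all probes (789 and 1274), quantile normalization (762 and 1138), the mean of a gene's probes (906 and 1280), leaving out the noisy arrays (908 and 1226) and, chosen after seeing the data, leaving out 7 Gy replicates 1 and 2 (991 and 1486). Normexp background correction called 116 and 149, the deposited values 430 and 532 of 7717 genes, detection on all wild-type arrays 521 and 1036 of 10385 (33.5% of calls rose, against 41.2%), and no filter 585 and 761 of 29719. Wild-type arrays alone gave 1496 and 2083, slide as a block over all arrays 1890 and 2493, and every array counted (chosen after seeing the data) 1651 and 2153. With the replicate block in the wild-type arrays, where the number marks the slide but same-numbered arrays did not all deviate together, 2329 rose and 3136 fell. Averaging near-identical arrays, which leaves 2 samples at 7 Gy, gave 100 and 354 (22.0% rose), and leaving out 7 Gy replicates 3 to 5 gave 128 and 284 (31.1% rose). Leaving out single arrays gave 493 to 924 that rose and 742 to 1364 that fell, the lowest without 7 Gy replicate 5 (489 and 737 of these also in the main fit). That array is a sample of its own, so n at 7 Gy was lower without it. One gene was called in opposite directions, with the deposited table. Of the 188 named genes, 33 were called under every alternative that tested them, and 132 under all but normexp, near-identical averaging and leaving out replicates 3 to 5. Under normexp, which moved the median of all genes to 0.54, lower genes turned positive: Topbp1 (0.42), Fanca (0.59), Apex1 (0.32), Msh6 (0.049), Fen1 (0.046), Cd8a (0.45), Bach2 (0.0098), Il5ra (0.36), Nfkbie (0.12), Gpr183 (0.10), Trim58 (0.26), Tbxa2r (0.088), Mapk12 (0.30), Trp53 (0.51), Ddb2 (0.58), Xpc (0.060) and Myc (0.40). Myc was at 0.32 with near-identical arrays averaged. The cause was not tested. Signal over background limits dim genes, whose changes are bounds.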
